A study of Homo sapiens with 5 samples.

Results

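MYB and HBS1L are neighbouring genes on human chromosome 6 that point away from each other, and the stretch between them holds enhancers of MYB. The calls described here are all called transcription start sites on hg38 chromosome 6 from 134900000 to 135300000. There were 27 of them among 28283 calls in the series, and they were split by the RefSeq bounds of HBS1L and MYB. HBS1L held 2 calls, the interval between the genes held 8, MYB held 16, and 1 lay to the right of MYB. The 60.4 kb of the window to the left of HBS1L held 0.

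MYB is a DNA-binding transcription factor that keeps blood progenitors dividing, and its level falls as red cell precursors mature. In humans, lower MYB activity in erythroid progenitors goes with more fetal haemoglobin. Distal enhancers between HBS1L and MYB, bound by erythroid factors such as GATA1, TAL1, KLF1 and LDB1, are known to act on the MYB promoter, and elongation of the MYB transcript through the first intron is known to be regulated. HBS1L is a GTPase related to the release factor eRF3, and works with pelota (PELO) to free stalled ribosomes.

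The study used PRO-seq, in which engaged RNA polymerases in isolated nuclei incorporate biotin-labelled nucleotides and the captured RNA is sequenced. The cells were HUDEP-2, an immortalised line of human erythroid progenitors. The 5 libraries were 3 of single-cell clones in which the guide sg1617 had been used to edit the enhancer of BCL11A, and 2 of wild-type cells. The clones carried a 1 bp insertion, a 13 bp deletion and a 15 bp deletion, with 1 library each. The deposited calls come from 1 alignment and have no column per library, so neither gene could be compared between edited and wild-type cells, and there is no replicate of any value. Which of the 5 libraries entered that alignment is not stated here, so no call can be assigned to edited or to wild-type cells. Every score was 0, so neither the number of reads at a call nor the sequencing depth is known. A place with 0 calls is therefore one where the caller's unstated threshold was not met, not one shown to be silent.

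The erythroid label was checked first. All 7 erythroid marker genes reported here, GATA1, KLF1, HBB, HBA1, ALAS2, SLC4A1 and TFRC, had a call at their annotated start or, where no start was given here, at an outer end. By the start alone, 4 of the 4 markers with a start given here were called. By the same rule of start or outer end, 42.7% of 19974 protein-coding genes had a call. Of the markers of other blood cells, 0 of 8 lymphoid, 0 of 8 megakaryocyte and 1 of 8 myeloid genes did. The myeloid gene was CEBPA. In each of these 3 lists a start was given for 4 of the 8 genes, and the others were judged by their outer ends. Of 8 progenitor markers, KIT, the stem cell factor receptor, and GATA2 were called, while CD34, FLT3, MECOM, HOXA9, MEIS1 and PROM1 were not.

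The promoter sequences of the 2 genes are shown first because the calls nearest to the annotated starts fall in or beside them. Each is the RefSeq sequence of assembly GRCh38.p14 from 250 bases before to 50 after the annotated start, printed 5′ to 3′ on the strand of the gene. HBS1L lies on the reverse strand (chr6:135054773-135055072) and MYB on the forward strand (chr6:135181058-135181357). In HBS1L the capitals run from the base of the antisense call to that of the sense call. In MYB they run from the base of the antisense call to the end of the sequence, since the sense call lay 73 bp downstream of the annotated start and so just beyond it.
HBS1L: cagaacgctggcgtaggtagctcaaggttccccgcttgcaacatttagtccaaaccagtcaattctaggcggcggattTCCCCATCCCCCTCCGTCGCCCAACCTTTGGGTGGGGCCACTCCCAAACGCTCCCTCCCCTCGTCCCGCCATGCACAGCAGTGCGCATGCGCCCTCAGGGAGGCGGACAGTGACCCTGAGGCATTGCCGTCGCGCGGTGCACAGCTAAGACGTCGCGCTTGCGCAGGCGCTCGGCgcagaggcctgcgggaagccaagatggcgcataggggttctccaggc
MYB: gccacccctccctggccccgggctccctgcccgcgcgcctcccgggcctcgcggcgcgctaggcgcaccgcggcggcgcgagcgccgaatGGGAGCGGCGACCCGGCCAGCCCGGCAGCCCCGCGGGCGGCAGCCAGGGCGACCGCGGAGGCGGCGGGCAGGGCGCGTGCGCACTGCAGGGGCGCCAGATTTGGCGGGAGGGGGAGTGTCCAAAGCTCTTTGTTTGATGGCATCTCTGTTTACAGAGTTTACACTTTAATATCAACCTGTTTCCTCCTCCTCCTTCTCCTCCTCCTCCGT

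Both promoters were rich in G and C. The MYB sequence was 71% G and C and the HBS1L sequence 64.7%, against a median of 65.7% (quartiles 60% and 71.7%) over 7150 protein-coding promoters with a call and 58.7% over 8662 without one. The ratio of observed to expected CG dinucleotides was 0.928 in MYB and 0.835 in HBS1L, against medians of 0.877 in called and 0.487 in uncalled promoters. Neither had a TATA box (TATAAA), which 4.78% of called promoters held, nor a CCAAT box (CCAAT), which 39.3% held. Neither had a GATA box (AGATAA or TGATAA) or an E-box (CANNTG), which were found in 4%, 2.78% and 58.3% of called promoters. All motifs were searched on both strands. MYB had 1 GC box (GGGCGG) at -126 to -121 bp, between the antisense and the sense call, whereas HBS1L had 0; 75.1% of called promoters held one. The sequence AACNG, the core that MYB itself binds, was found in MYB at -15 to -11 bp and at 16 to 20 bp and was not found in HBS1L, and 75.7% of called promoters held it. A CACCC box, the kind bound by KLF1, was found once in each, at -248 to -244 bp in MYB and at -143 to -139 bp in HBS1L, and in 62.3% of called promoters. At such shares these matches describe the letters and do not mark sites.

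At HBS1L (gene ID 10767, positions 134960378 to 135054822, 94.4 kb), both calls of the gene lay at its start. The first was at 135054820, 2 bp downstream of the annotated start, and the second at 135054343, 479 bp downstream. The remaining length of the gene held 0 calls on either strand. A promoter call was defined as a call on the gene's strand within 500 bp of its annotated start, and 45.2% of 15812 protein-coding genes with a start given here had one. Offsets as small as that of HBS1L were common, with 35.7% of the 7150 called genes within 2 bp and a median offset of 2 bp. With 2 calls on its own strand HBS1L was 1 of 1941 called genes (27.1%) with 2 or more. MIR3662, a microRNA gene annotated inside HBS1L at 134979338 to 134979432, had 0 calls.

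Divergent calls accompanied the HBS1L start. A forward call at 135054994 lay 174 bp from the HBS1L promoter call on the upstream side, and a second forward call at 135055466 lay 644 bp upstream of the HBS1L start. Both fell in LOC124901405, an annotated long non-coding RNA of the forward strand whose start lies 71 bp from that of HBS1L. They were 101 and 573 bp downstream of the start of LOC124901405, so the first is its promoter call. LOC124901406, annotated within LOC124901405, held 0. Each of the 4 calls at this promoter had a call of the other strand within 1000 bp upstream, the rule used here for a paired call.

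MYB (gene ID 4602, positions 135181308 to 135219172, 37.9 kb) was called at 135181381, 73 bp downstream of its annotated start. Of the 7150 called genes, 602 (8.42%) had an offset at least as far downstream, and the quartiles of all offsets were -1 and 23 bp. A second sense call followed at 135181747, 439 bp downstream. An antisense call at 135181148, 160 bp upstream of the annotated start, formed a divergent pair with the promoter call, 233 bp apart. This lay between the median of 166 bp and the third quartile of 255 bp for 7492 such pairs of mutually nearest calls in the series. One further sense call at 135180572 lay 736 bp upstream of the start, outside the gene, and was unpaired.

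**Figure D1:**
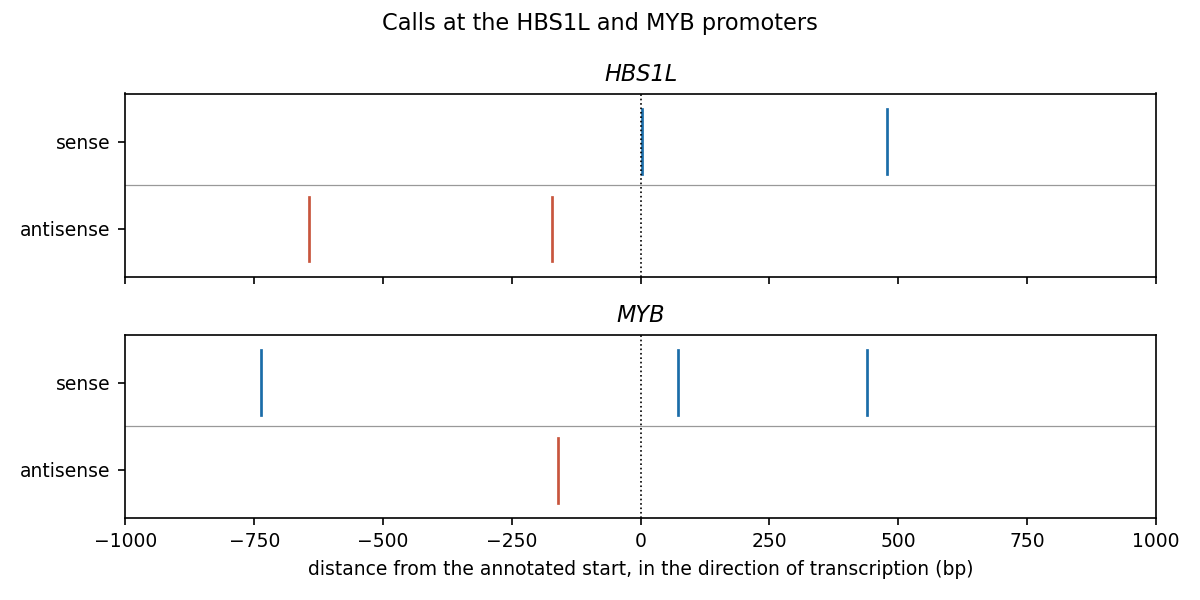
Calls within 1000 bp of the annotated starts of HBS1L (top) and MYB (bottom), by distance in bp in the direction of transcription, with sense calls above and antisense calls below the line in each panel; the dotted line is the annotated start. HBS1L had sense calls at 2 and 479 bp and antisense calls at -172 and -644 bp, and MYB had sense calls at -736, 73 and 439 bp and an antisense call at -160 bp.

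Around the called bases that lie inside these promoter sequences, the letters can be read on the strand of each call. They are shown because they bear on where, to the base, a call sits. Each stretch below is 41 bases of GRCh38.p14 read 5′ to 3′ on the strand of the call, with the called base and the base after it in capitals. They cover chr6:135054800-135054840 for the HBS1L sense call, chr6:135054974-135055014 for its antisense call and chr6:135181128-135181168 for the MYB antisense call.
HBS1L sense call: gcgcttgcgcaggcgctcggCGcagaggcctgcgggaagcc
HBS1L antisense call: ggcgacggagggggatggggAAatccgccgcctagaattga
MYB antisense call: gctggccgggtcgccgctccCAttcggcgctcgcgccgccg

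In the CA dinucleotide typical of human start sites, the A is the start base itself. At the MYB antisense call the C was the called base and the A came after it, so the call lay 1 base upstream of such an A. Over 5994 promoter calls of the series inside the printed kind of window, 33.9% had this arrangement, whereas 1.35% had the CA with its A at the called base itself. On the forward strand these shares were 33.0% and 1.70%, and on the reverse strand 34.8% and 0.986%. The HBS1L calls did not have it. A CA was thus far more often placed with its A 1 base downstream of the called base than at it. Coordinates are given here as deposited, and an offset of -1 bp, the first quartile above, is to be read with these shares in mind.

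Inside MYB the calls were spread over much of the gene, unlike those of HBS1L. There were 12 forward calls, in the sense direction, and 4 reverse calls, in the antisense direction. The sense calls lay 73, 439, 1294, 1942, 2231, 2547 and 2818 bp from the annotated start, then at 10682, 10981 and 11257 bp, and then at 30193 and 33835 bp. The antisense calls inside the gene lay at 1698, 2664, 2979 and 11120 bp. Most of the calls were thus gathered in the first 3 kb, a small second group followed about 11 kb into the gene, and the distal part of the gene held only single calls. The exon structure was not used here, so calls are placed by distance and not by exon or intron.

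**Figure D2:**
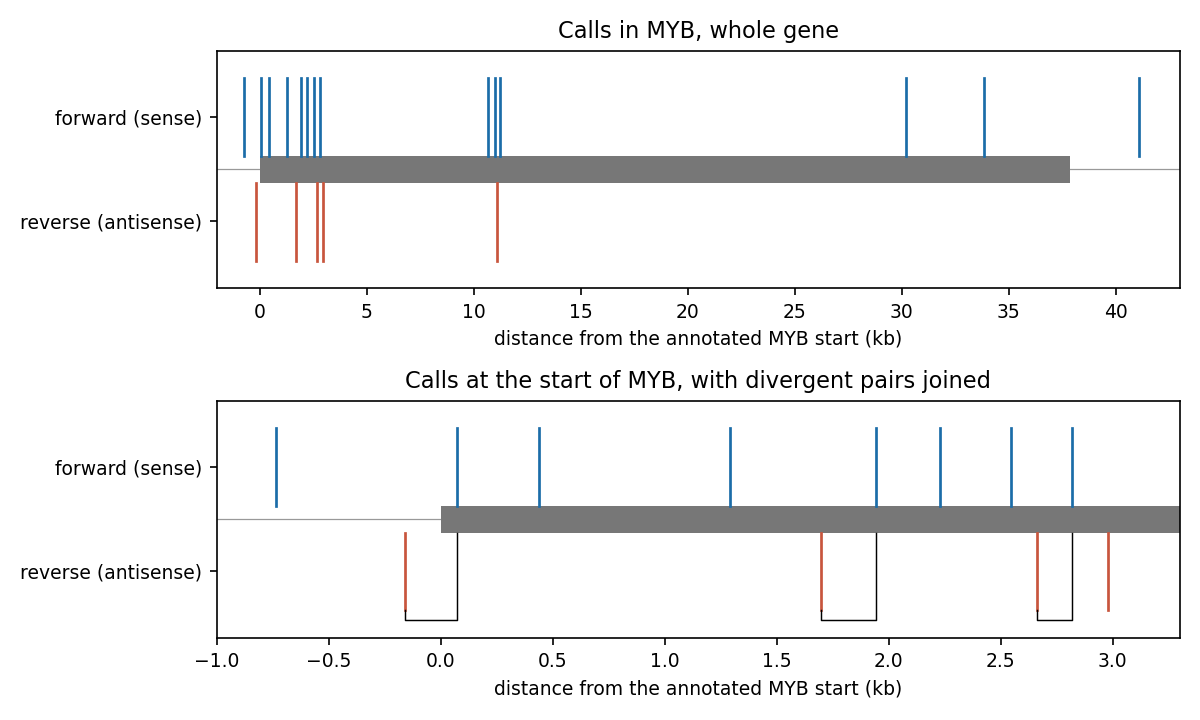
Calls in and around MYB by distance in kb from its annotated start, forward (sense) calls above and reverse (antisense) calls below the grey bar of the gene. The upper panel shows the whole gene with groups of calls at the start and near 11 kb and single calls at 30.2, 33.8 and 41.1 kb, and the lower panel enlarges the start, with the divergent pairs of mutually nearest calls joined by black lines.

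The group at the start, with neighbouring calls at most 1000 bp apart on either strand, held 12 calls, 8 forward and 4 reverse, over 3715 bp from -736 to 2979 bp. In the series 25 of 14692 such groups (0.170%) held 12 or more calls, and 46.1% were single calls. The second group held 3 forward and 1 reverse call over 575 bp, and 8.73% of groups held 4 or more. Among the 7150 called genes, 8 had 12 or more calls on their own strand (0.112%), counting those up to 500 bp upstream, and MYB ranked 7th, level with GSE1. The 12 include the calls at 30193 and 33835 bp, which also lie in the overlapping non-coding gene LOC105378011. Without these MYB had 10 own-strand calls and ranked 9th, and 10 of the called genes (0.14%) had 10 or more. Calls shared with overlapping genes were left out for MYB only, and the other genes kept theirs. Genes without a start in the reference table were not ranked. When calls of a strand within 500 bp of each other were merged, MYB kept 6 own-strand calls, and 19 of the 7150 genes (0.266%) had 6 or more. Per kilobase, MYB had 0.317 own-strand calls, and 8.08% of called genes had at least as many. With 4 antisense calls inside the gene, MYB was 1 of 91 called genes (1.27%) with 4 or more.

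The calls of MYB were weighted towards its start. Of the 12 sense calls, 7 (58.3%) lay in the first 10% of the gene's length. This length was counted from the outer bound of the gene, which for MYB is also its annotated start. The 12 again include the calls shared with LOC105378011. Over 98 called genes with 5 or more own-strand calls the median of this share was 40% (quartiles 20% and 50%), and 22 of the 98 (22.4%) had a share at least as high as MYB. Where the annotated start lies well inside the bounds, calls near it are not counted. GSE1, with a promoter call 5 bp from its start, had a share of 0%. The background is thus not a measure of gathering at the annotated start. Gaps between neighbouring sense calls in MYB ranged from 271 to 18936 bp with a median of 366 bp. The smallest gap between neighbouring calls of a strand in the whole series was 206 bp, so the closest calls in MYB were near the shortest spacing that the lists contain.

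Antisense calls were interspersed among the sense calls inside MYB. The reverse call at 135183006 and the forward call at 135183250 were a divergent pair 244 bp apart, those at 135183972 and 135184126 a pair 154 bp apart, and those at 135192428 and 135192565, in the second group, a pair 137 bp apart. With the pair at the promoter, 7 of the 16 calls inside MYB were in a divergent pair of mutually nearest calls, a kind of pair that held 53.2% of calls in the series. Convergent pairs, a forward call and a reverse call downstream of it within 1000 bp that were each other's nearest in this orientation, were also present. There were 4 such pairs inside MYB, at distances of 404, 117, 161 and 139 bp, and together they held 8 of the 16 calls; 21.7% of calls in the series were in one. A call can belong to both kinds of pair. The median distance of convergent pairs in the series was 404 bp and the first quartile 245 bp, so 3 of the 4 pairs in MYB were closer than that quartile.

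Over the whole window 15 of 27 calls had a call of the other strand within 1000 bp upstream (55.6%, Wilson 95% confidence interval 37.3 to 72.4%), and 57.6% of all 28159 calls on chromosomes 1 to 22 and X did. The interval covers counting over calls only, and neighbouring calls are not independent. By this rule of 1000 bp the share in the window was thus close to that of the series. By segment, 2 of 2 calls in HBS1L, 3 of 8 in the interval, 10 of 16 in MYB and 0 of 1 to the right of MYB were paired. With a pairing window of 500 bp, 10 of the 27 calls were paired, and the share of the series under that window is not given here. Divergent pairs of mutually nearest calls held fewer, 10 of the 27 calls in the window, against 53.2% of calls in the series.

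The interval between the genes was 126.5 kb long (135054823 to 135181307). Of its 8 calls, 2 were the forward calls upstream of HBS1L and 2 lay within 1000 bp of the MYB start. The other 4 lay over 1000 bp from both genes and are named distal calls here. They were at 135074390 on the forward strand and at 135097200, 135110225 and 135118231 on the reverse strand, that is, 106.9, 84.1, 71.1 and 63.1 kb upstream of the MYB start. The reverse strand is antisense to MYB and sense to HBS1L. None of the 4 was paired, and the nearest other call was 8006 to 18924 bp away. Of 4214 distal calls between protein-coding genes in the series, 37.8% were paired. From the last distal call to the next call at MYB, 62.3 kb held 0 calls.

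**Figure D3:**
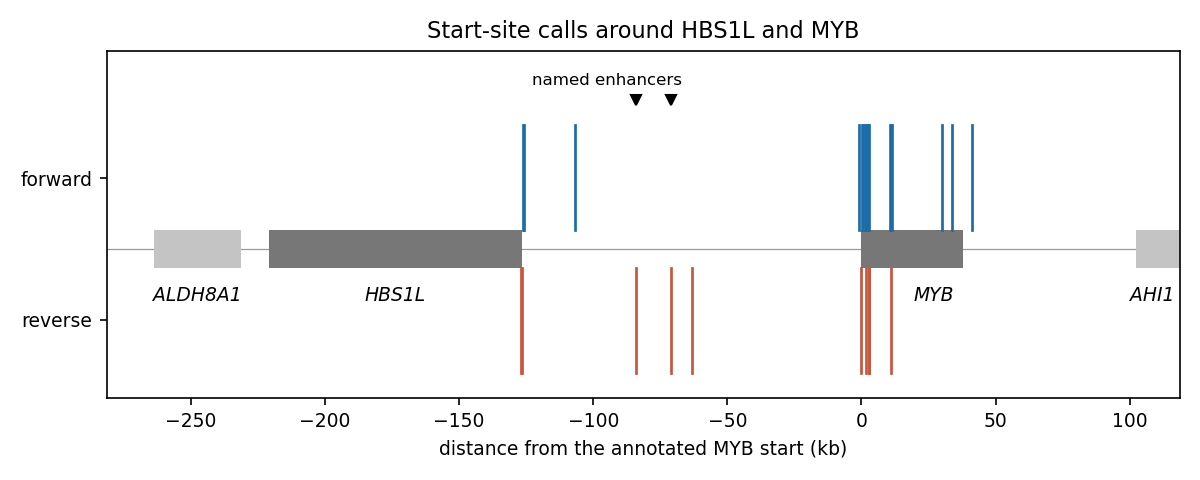
All 27 calls of the window by distance in kb from the annotated MYB start, forward calls above and reverse calls below the line. Protein-coding genes are grey bars, and triangles mark the nominal distances of the enhancers named for 84 kb and 71 kb. Calls gathered at the facing starts of HBS1L and MYB, and 3 of the 4 distal calls between them were on the reverse strand, 2 of them under the triangles.

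Human enhancers of MYB are named for their distance upstream of its start, among them those at 84 and 71 kb. The reverse calls at 135097200 and 135110225 lay 108 and 83 bp from these nominal distances. Both nominal distances thus had a call within 2 kb, and within 1 kb as well. Windows of 2 kb on each side of both distances cover 6.33% of the interval. The names are rounded to whole kilobases, the enhancer bounds were not used here, and no test was made of this placement. The call near 71 kb lay inside LOC105378010, a long non-coding RNA annotated on the forward strand at 135106845 to 135110417, and on the opposite strand to it. It was 192 bp from the right-hand end of LOC105378010, and the start of LOC105378010 had 0 promoter calls. The calls at 106.9, 84.1 and 63.1 kb fell in no annotated gene.

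Distal calls were set against those of other intervals. Between neighbouring protein-coding genes there were 2870 other intervals from 0.5 to 2 times as long. Their median was 0 distal calls, 80.3% had 0, and 88 (3.07%) had 4 or more. Of 303 with a promoter call in both flanking genes, 19 (6.27%) had 4 or more, and of the 107 of these in which the genes pointed away from each other, as HBS1L and MYB do, 5 (4.67%) did. Among the high counts were 22 between GATA5 and SLCO4A1 and 19 between LOC124900971 and ANXA2R. The HBS1L to MYB interval was thus in the upper part of the distribution in each of these sets. Its 4 distal calls were well below these high counts, which belong to the set of 2870 only. The maximum was 11 among the 303 intervals and 7 among the 107.

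**Figure D4:**
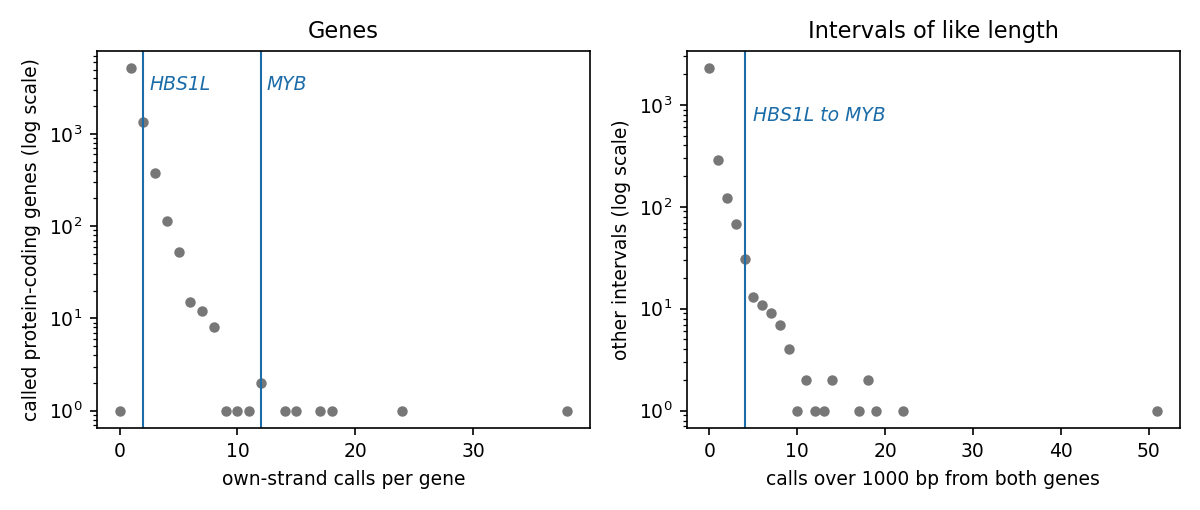
Left, the number of called protein-coding genes (log scale) by their number of own-strand calls, with lines at HBS1L (2 calls) and MYB (12 calls). Right, the number of other intervals of like length (log scale) by their distal calls, with a line at the 4 of the HBS1L to MYB interval; most genes had 1 call and most intervals had 0.

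Beyond MYB, a forward call at 135222388 lay 3216 bp past the annotated end of the gene. It fell in LOC105378011, a long non-coding RNA at 135195895 to 135236195 that overlaps the end of MYB. The MYB calls 30.2 and 33.8 kb from the start also fell in LOC105378011, and its strand was not given in the tables used here, so these 3 calls cannot be assigned to either gene by position. MIR548A2, a microRNA gene further right, held 0 calls.

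The surroundings of the 2 genes held few calls. ALDH8A1, an aldehyde dehydrogenase gene to the left, had 0 calls in its 32.7 kb and none at its start, and its promoter sequence was 46.7% G and C. The nearest call to the left of HBS1L was at 134318080, a gap of 736263 bp to the second HBS1L call. To the right, the next call after 135222388 was 275357 bp away at 135497745. It was the promoter call of AHI1, a gene of primary cilia, 5 bp upstream of its start. Of the 4 protein-coding genes that overlap the window, MYB, HBS1L and AHI1 had a promoter call and ALDH8A1 did not.

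Genes with a call pattern like that of MYB were sought by the number of own-strand calls and then by length. Only GSE1 had the same number, 12, in a gene of 506.7 kb. NFIX followed with 11 in 103.3 kb, HMGB1 with 14 in 160.9 kb, LOC124900418 with 10 in 8.4 kb and KLF16 with 9 in 24.1 kb. The share of own-strand calls in the first 10% of the gene was again counted from its outer bound. It was 0% in GSE1, 9.09% in NFIX, 14.3% in HMGB1, 20% in LOC124900418 and 11.1% in KLF16, each below the 58.3% of MYB. GSE1 had a promoter call 5 bp from its annotated start, so that start lies inside its bounds, beyond the first 10%. A lower share than that of MYB therefore need not mean fewer calls near the annotated start. For HBS1L, 1352 other genes had the same 2 calls. Those closest in length, all between 94.2 and 95.1 kb, were SYNRG, TRAPPC10, FBRSL1, NF2 and BICRA, with promoter offsets from -17 to 23 bp. In SYNRG, TRAPPC10 and BICRA both calls lay in the first 10% of the gene, as in HBS1L.

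Genes that work with MYB and HBS1L were counted by promoter call, beside the 45.2% of all protein-coding genes. Of the MYB cofactors and regulators 9 of 9 with a start given here were called. They included MYBL2, a MYB relative of dividing cells, CREBBP and EP300, the acetyltransferases that MYB recruits, and MEN1, menin. MYBL1, HIPK2 and NLK, without a start here, had no call at an outer end. Of reported MYB target genes 4 of 8 were called, namely KLF1, KIT, CCNB1 and CCNE1, with offsets of 3, 0, -27 and -25 bp. BCL2, ADA, CD34 and GFI1 were not, and LMO2 and MYC, without a start here, had a call at an outer end. Of the factors of the interval enhancers 6 of 8 were called, with GATA1, LDB1 and TCF3 at -1 bp and KLF1 at 3 bp. TAL1, whose nearest own-strand call was 1083 bp downstream of the start used, and CBFA2T3 were not.

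On the side of HBS1L, 10 of 13 ribosome rescue genes with a start were called. ABCE1, the ribosome recycling ATPase, was called at 7 bp, ETF1, the release factor eRF1, at 70 bp, and ZNF598, a ubiquitin ligase of collided ribosomes, at 44 bp. ASCC2, another factor of collided ribosomes, was called at 5 bp. PELO, the partner of HBS1L, was not called at the start used, its nearest own-strand call being 12241 bp downstream. In or near PELO there were 1 forward and 1 reverse call. GSPT1 and GSPT2, which encode forms of eRF3, were also not called, although GSPT1 had a call 746 bp downstream. In the list of the SKI complex and the RNA exosome, to which a short form of HBS1L is known to bind, 12 of 13 were called, among them SKIC2 at -1 bp, SKIC8 at 11 bp, EXOSC2 at 19 bp and EXOSC3 at 29 bp, and SKIC3 was not. These counts carry no test.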

How the data were processed

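PRO-seq was made in 5 HUDEP-2 libraries. The deposited files are 2 BED lists of start sites, 1 per strand, called by the authors with TSScall on 1 sorted and de-duplicated alignment, per the file headers; the submitters' processing notes name deepTools 3.5.4, SAMtools 1.17, Picard, BWA 0.7.16a and the build hg38. The read minimum of TSScall was not given in the sources used here. The score column, as deposited, was 0 in all 28283 calls, and calls were intervals of 1 base, whose end was taken as the 1-based position.

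Gene bounds came from RefSeq GRCh38.p14, which shares chromosome coordinates with hg38, and starts, strands and sequences from its promoter table, which held 15812 of 19974 protein-coding genes. Genes outside that table were not tested for promoter calls. Pairing, promoter and distal rules used windows of 1000, 500 and 1000 bp. Comparisons were made on chromosomes 1 to 22 and X with counts and shares only, since no comparison between samples was possible. The members, lists and windows were chosen with earlier results of these data known. Named genes were those overlapping the window, the uncalled and first 4 called members of each list, the 5 nearest in pattern to each gene and the flanks of the 3 intervals with the most distal calls; other names describe markers, and some items are not reported here. The promoter, divergent pairing and merging rules were run on simulated calls planted to meet them, which checks the code only. The convergent, group and distal rules were not included. Computation used matplotlib 3.10.9, scipy 1.17.1, pandas 2.3.3 and numpy 2.4.6 under Python 3.11.15.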

Additional observations from a re-analysis of the deposited data

How the results depend on the processing

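Merging calls of a strand within 500 bp changed the counts the most. It left 1 call in HBS1L, 7 in the interval, 9 in MYB and 1 to the right of MYB. Own-strand calls fell to 6 in MYB and 1 in HBS1L. Among the merged calls of the window, 6 were paired, in place of 15 before merging. The paired share of the series after merging is not given here, so the window cannot be set against it. With a promoter window of 100 bp, MYB and HBS1L each kept 1 promoter call in place of 2. Restricting the interval to calls over 1000 bp or over 5000 bp from both genes left 4 of 8. Counting genes without a start by their outer ends gave 7 erythroid markers in place of 4. That setting, mutually nearest pairs and leaving out the MYB calls that also lie in LOC105378011 were chosen after seeing the data. Over 61 alternatives, 51 stayed within 1.5 times the value reported, among them the start coordinate as position and a 2000 bp pairing window. A 500 bp pairing window was also counted among the 51, although it left 10 paired calls in the window in place of 15. A stricter score could not be tried, since every score was 0, and no library could be left out. No paired analysis was possible because the lists have no column per library. Depth is unknown, so a place without a call has no stated limit.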
